A study of Mus musculus and Rattus norvegicus with 37 samples.

Results

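The liver takes up glucose when it is plentiful and releases it when it is scarce, and 8 genes that carry or control this traffic were followed in mouse and rat liver: Gckr, Slc2a2, Pfkl, Pfkfb1, Khk, Fbp1, G6pc and Pck1. They were picked by gene name, and each occurs once among the 48440 gene entries of each mouse table and the 32750 entries of each rat table. Hepatic mRNA was measured by RNA-seq in 37 livers, 21 from mice and 16 from rats, all collected in the fed state. The value given throughout is the normalized count, that is, a gene's reads after the study rescaled the libraries of a table to one another.

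The mice were C57BL/6J females on chow that received 1 subcutaneous injection of LNA29 or of saline, and livers were taken on day 7. LNA29 is a mixture of locked nucleic acid oligonucleotides that inhibit the microRNA family miR-29, each given at 20 mg/kg. The group WT/Floxed pooled wild-type mice with mice that carry a floxed Sirt1 gene without its deletion (15 to 20 weeks old), and held 8 LNA29 livers (4 wild type and 4 floxed) and 5 saline livers (3 wild type and 2 floxed). C57BL/6J females of the study are described as 9 to 11 weeks old, but that age is not stated for the sequenced wild-type mice. The study had excluded 1 floxed saline mouse. The group labelled L-Sirt1 KO, in which Sirt1 is deleted in the liver only, came from the same litters as the floxed mice and held 4 LNA29 and 4 saline livers. The rats were males. Zucker fatty rats (ZFR), obese because of a mutation in the leptin receptor gene, were compared with Zucker lean rats (ZLR) at 5.5 months (n = 4 each). Separate ZFR of 3 months received BT2, an inhibitor of the kinase that restrains branched-chain keto acid breakdown, or its DMSO vehicle by daily intraperitoneal injection for 1 week (n = 4 each, BT2 at 20 mg/kg).

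Glucose enters and leaves the hepatocyte through the transporter GLUT2, the product of Slc2a2, and the protein encoded by Gckr restrains its use in the cell. Pfkl encodes the liver form of phosphofructokinase, the committed step of glycolysis, and Pfkfb1 the liver bifunctional enzyme that makes and removes its strongest activator. Khk encodes ketohexokinase, the first enzyme of fructose breakdown. In the opposite direction, Pck1 (cytosolic phosphoenolpyruvate carboxykinase), Fbp1 (fructose bisphosphatase) and G6pc (the catalytic subunit of glucose-6-phosphatase) carry the steps of gluconeogenesis that glycolysis cannot reverse, and Pck1 and G6pc are classically raised by fasting and glucagon and lowered by insulin.

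The microRNAs that LNA29 inhibits share 1 seed, the stretch that pairs with target mRNAs, and their mature forms are shown because the seed defines which 3′ UTRs could be bound directly. They are RefSeq sequences (GRCm38.p6), written 5′ to 3′ with bases 2 to 8, the seed, in capitals.
mmu-miR-29a-3p: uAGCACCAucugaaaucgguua
mmu-miR-29b-3p: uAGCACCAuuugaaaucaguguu
mmu-miR-29c-3p: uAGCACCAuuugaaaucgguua
The 7 bases that pair with this seed, TGGTGCT, were searched on the sense strand of the annotated 3′ UTRs of GRCm38. They occurred in 2 of the 8 genes, Slc2a2 and G6pc, and in 2202 of the 13535 tested mouse genes with an annotated 3′ UTR (16.3%). The 3 matches are printed with 11 bases on either side and the match in capitals. All lie on the plus strand in the final exon.
Slc2a2, chr3:28729760-28729788: cttggatggagTGGTGCTtcctccatagt
Slc2a2, chr3:28731290-28731318: ttctgaatgatTGGTGCTgctgctgttta
G6pc, chr11:101377512-101377540: caactgtttgtTGGTGCTtttgtagggtt
A match is a description of the letters and was not tested as a site of binding. The 3′ UTRs of Gckr, Pfkl, Pfkfb1, Khk, Fbp1 and Pck1 held no match.

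On GRCm38 the genes lie on 7 chromosomes. Gckr (chr5:31297443-31327314) and Khk (chr5:30921431-30931248) both lie on the plus strand. Pck1 lies at chr2:173153048-173159273, Slc2a2 at chr3:28697903-28731359 and G6pc at chr11:101367561-101377903, all on the plus strand. Pfkfb1 lies on the plus strand at chrX:150588229-150643878, while Pfkl (chr10:77986947-78010083) and Fbp1 (chr13:62864753-62888282) lie on the minus strand. Slc2a2 shares 28693 bases with the antisense gene 1700112D23Rik and Pfkfb1 shares 1640 bases with Apex2 on the other strand. These overlaps are of whole gene spans, introns included (the merged exons of Slc2a2 cover 5755 bases), and shared exon bases were not measured. Whether the counting used the strand is not given in the sources used here. Any reads of these partners that were counted for the gene could therefore not be told apart.

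Divided by the length of their merged annotated exons, the 8 genes spanned a wide range of mRNA levels in saline WT/Floxed mice (n = 5). Fbp1 stood at 33265 ± 3344 (SD) normalized counts per kb and Pck1 at 25641 ± 17036, and these overlapped. Khk followed at 12744 ± 1436 and G6pc at 8468 ± 4363, also within their spread of each other. Slc2a2 (2862 ± 609) and Gckr (2552 ± 165) did not differ beyond their spread, and neither did Pfkl (301 ± 58.4) and Pfkfb1 (283 ± 63.7). Pck1 and G6pc had the largest spread relative to their level in this group, where saline Pck1 was 127214 ± 32173 normalized counts in the 3 wild-type and 28989 ± 1570 in the 2 floxed mice. In saline mice labelled L-Sirt1 KO this did not hold for G6pc, at 9624 ± 1244 per kb.

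Some properties of the libraries bear on what follows. Mouse libraries held an estimated 42.6 to 78 M reads, and rat libraries 0.188 to 58.5 M, so that 1 read was worth up to 10.5 normalized counts in the shallowest rat liver. Among the lean rats replicates 3 and 4 were the shallowest, and among the vehicle rats replicate 4. Hepatocyte markers were detected in every group, with none of the list at 0. In mice labelled L-Sirt1 KO the Sirt1 count was not lower than in WT/Floxed mice (535 to 617 against 493 to 699 over all livers, in separately normalized tables), and counts over a whole gene would not show the loss of part of it, so these libraries are named by their label. Each library is bulk tissue, in which fewer cells of a type and less RNA per cell cannot be told apart.

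The first question was how the 8 genes responded to LNA29 in WT/Floxed mice. Gckr and Khk were lower with LNA29, at 0.784 and 0.767 times the saline level, and these were the only calls among the 8 genes in this comparison. To be called, a mouse gene had to pass the study's criteria: p under 0.05 before and under 0.2 after adjustment, a mean over 50 normalized counts, and a change of over 1.2 times. G6pc and Pck1 had the largest shifts of the 8 genes, both upward, with a spread between animals that left them uncalled. The 2 called genes of 8 stand beside 688 called of 15811 genes tested (4.35%), and the median log2 fold change of the 8 was -0.20 beside 0.00 for all tested genes.

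Gckr, which encodes an inhibitory regulator of hepatic glucose use, ranged over the 8 LNA29 livers from 8023 to 10287 normalized counts with a median of 8467. The 5 saline livers held 12265, 10901, 10984, 10337 and 10832. Every saline liver was thus above every LNA29 liver, although the gap was narrow (10287 against 10337), and 1.51% of all tested genes had groups that did not overlap. The means were 8688 ± 729 and 11064 ± 717, the log2 fold change -0.35 ± 0.07 (SE), the limma adjusted p 0.0214 and the two-sided exact permutation p 0.000777, the smallest that 1287 splits can give. The difference was -0.31 in wild-type mice and -0.38 in floxed mice. Fitted alone, the floxed mice met the criteria (limma adjusted p 0.121) and the wild-type mice did not (limma adjusted p 0.429). On the 3 sequencing flow cells, with 2 to 3 LNA29 and 1 to 2 saline livers each, the difference lay between -0.37 and -0.34.

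Khk ranged from 14987 to 21020 with LNA29 (median 17273), and the saline livers held 24529, 23424, 19766, 20804 and 25980. The groups overlapped in 2 LNA29 and 2 saline livers. It had a log2 fold change of -0.38 ± 0.09, with an adjusted p of 0.0561 and an exact permutation p of 0.00544. It was -0.32 in wild-type mice (adjusted p 0.47) and -0.49 in floxed mice (adjusted p 0.174), and met the criteria only in the floxed mice. On the 3 flow cells it lay between -0.59 and -0.22.

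Slc2a2 ranged from 10103 to 16179 with LNA29 (median 12722) against 20452, 13150, 16496, 19437 and 12810 with saline. Both low saline livers were floxed. Its log2 fold change was -0.33 ± 0.13, the exact permutation p 0.0381 and the adjusted p 0.257, so it was not called. With background as a covariate it was called (-0.30, adjusted p 0.0932), as it was with sample quality weights (-0.45, adjusted p 0.0379) and without LNA29 replicate 1, saline replicate 2 or saline replicate 5 (adjusted p 0.143, 0.195 and 0.159).

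Phosphofructokinase, its regulator and the opposing bisphosphatase showed no call over the whole group. Pfkl ranged from 1909 to 2418 normalized counts with LNA29 and from 1566 to 2522 with saline, Pfkfb1 from 630 to 1328 and from 812 to 1491, and Fbp1 from 43787 to 60696 and from 49537 to 65243. The LNA29 and saline livers overlapped for all 3. Pfkl had a log2 fold change of 0.13 ± 0.11 (adjusted p 0.661), Pfkfb1 of -0.31 ± 0.18 (adjusted p 0.508) and Fbp1 of -0.09 ± 0.09 (adjusted p 0.739). Their 95% intervals ran from -0.09 to 0.36, from -0.70 to 0.07 and from -0.29 to 0.10. Within floxed mice alone Pfkl met the criteria as higher with LNA29 (0.40 ± 0.11, adjusted p 0.162), while within wild-type mice it was -0.05 ± 0.13 (adjusted p 0.926), and the difference was not tested.

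G6pc, the last step of glucose output, ranged from 7526 to 56670 with LNA29 (median 40758) against 26125, 13003, 18412, 35463 and 9199 with saline. LNA29 replicate 3, a floxed mouse, was below every saline liver. The other 7 LNA29 livers held 28779 or more, and 1 saline liver exceeded that. G6pc had a log2 fold change of 0.86 ± 0.43 with an adjusted p of 0.413 and an exact permutation p of 0.11. Without LNA29 replicate 3 it was 1.16 with an adjusted p of 0.0578, which passed the criteria.

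Pck1 ranged from 35833 to 177348 with LNA29 (median 135238) against 149734, 27878, 90366, 141542 and 30099 with saline. The 2 low saline livers were the floxed ones, and the low LNA29 liver was again replicate 3. The log2 fold change was 0.68 ± 0.45 (adjusted p 0.582). Within floxed mice it was 1.71 (SE 0.53) and within wild-type mice 0.07 (SE 0.21). The difference between both backgrounds was not tested, and whether they also differed in age is not certain. For G6pc the values were 1.31 in floxed and 0.65 in wild-type mice.

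**Figure D1:**
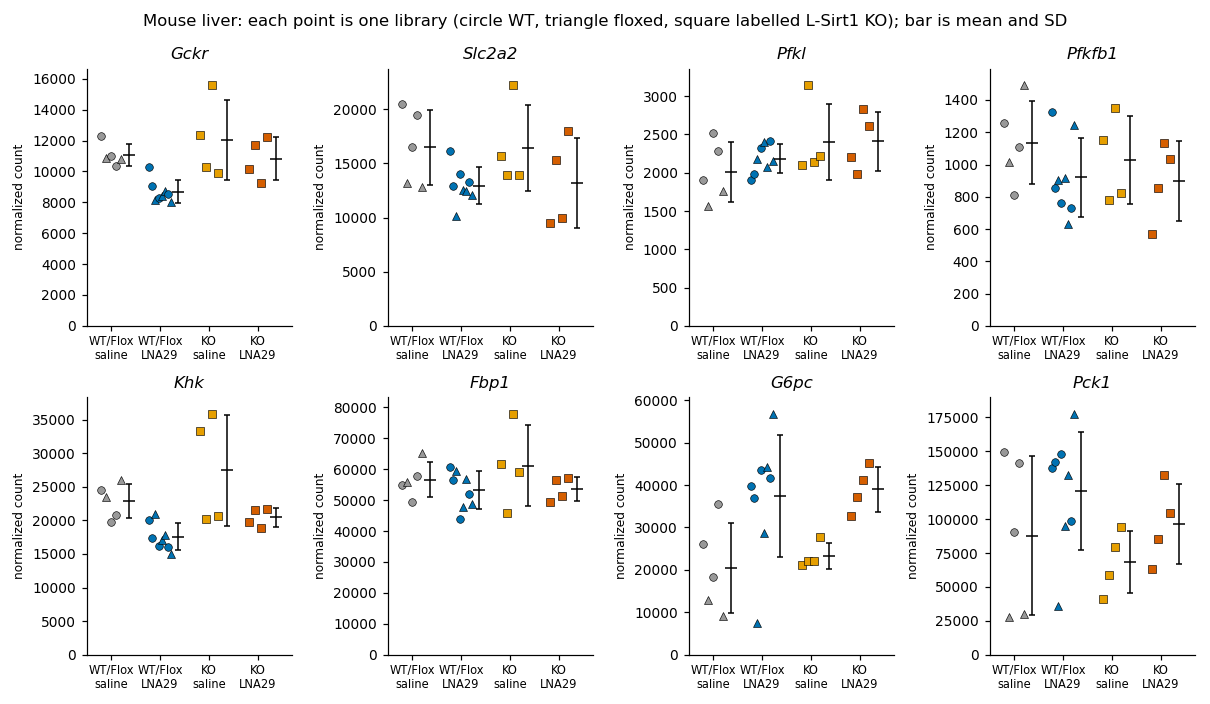
Normalized counts of the 8 genes in the 21 mouse livers by group, on linear axes from 0. Points are single livers (circles wild type, triangles floxed, squares labelled L-Sirt1 KO), and bars are mean and SD. Gckr separates the WT/Floxed groups at 10287 against 10337, and the low Pck1 points at 27878, 30099 and 35833 are floxed mice.

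In mice labelled L-Sirt1 KO, LNA29 was compared with saline to ask whether the response is the same without hepatic Sirt1. G6pc was higher and was the only call among the 8 genes, beside 297 called of 15885 genes tested (1.87%). The median log2 fold change of the 8 was -0.15, beside 0.00 for all tested genes. Gckr and Khk were not called in these mice.

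G6pc held 32739, 37167, 41069 and 45089 normalized counts in the LNA29 livers and 21078, 22002, 22167 and 27680 in the saline livers. All treated livers were above all saline livers, and 6.95% of tested genes had groups that did not overlap. The means were 39016 ± 5288 and 23232 ± 3004, the log2 fold change 0.75 ± 0.12 and the adjusted p 0.0538. The two-sided exact permutation p was 0.0286, the smallest that 4 livers against 4 can give. Within each of the 3 flow cells the log2 fold change lay between 0.73 and 0.90, with only 1 or 2 livers per group on each.

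Pck1 held 63456, 85351, 132204 and 104580 with LNA29 against 41000, 59154, 79262 and 94127 with saline. These groups overlapped, with a log2 fold change of 0.51 ± 0.28 and an adjusted p of 0.545.

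Khk held 19689, 21574, 18836 and 21656 with LNA29 and 33302, 20133, 35791 and 20627 with saline. The saline livers fell into a high and a low pair, and the low pair lay among the treated livers. The log2 fold change of -0.38 ± 0.19 was nearly that of WT/Floxed mice, but its adjusted p was 0.508.

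Gckr held 10129, 11722, 9230 and 12241 with LNA29 against 12337, 10259, 15572 and 9895 with saline, a log2 fold change of -0.13 ± 0.15 (adjusted p 0.784). Slc2a2 held 9496, 15352, 9961 and 17961 with LNA29 against 15726, 13901, 22204 and 13902 with saline. Its log2 fold change was -0.34 ± 0.23. Pfkl stood at 0.01 ± 0.16, Pfkfb1 at -0.20 ± 0.24 and Fbp1 at -0.17 ± 0.15, and the adjusted p of these 4 genes ran from 0.623 to 0.983. Among the saline livers replicate 3 had the highest Gckr, Slc2a2, Khk, Fbp1 and Pfkfb1 counts.

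The difference between the responses was tested directly as an interaction term in limma, taken as the log2 fold change in mice labelled L-Sirt1 KO minus that in WT/Floxed mice. None of the 8 genes passed an adjusted p of 0.2, and 7 of 15601 genes did (0.0449%). The differences ran from -0.17 ± 0.65 for Pck1 to 0.22 ± 0.15 for Gckr, with adjusted p from 0.715 to 0.997. For Gckr the 95% interval was -0.10 to 0.53, and for G6pc -1.31 to 1.09, so a sizeable difference in either direction remained possible for G6pc.

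Among the other measured genes of glucose and fructose handling and their regulators, 42 could be tested in each mouse comparison. In WT/Floxed mice none was called, and the largest shift was that of Hk3, a hexokinase typical of blood cells, at -0.98 ± 0.37 (adjusted p 0.247). The glycolysis genes Tpi1 (-0.24, adjusted p 0.0928) and Gpi1 (-0.21, adjusted p 0.128) were lower there and missed only the required change of over 1.2 times. Under the L-Sirt1 KO label Slc2a1, the transporter GLUT1, was higher at 753 against 505 normalized counts (log2 fold change 0.58, adjusted p 0.121), and Gpi1, the isomerase between glucose and fructose phosphates, was lower at 6742 against 8802 (-0.38, adjusted p 0.188). For Gpi1 the responses under both labels did not differ past the test (limma interaction adjusted p 0.649).

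Feeding and time of day also act on these genes, so their markers were read in the same livers. Of 6 hepatocyte markers Apoa1 was higher (0.51) and Tat lower (-0.48) in WT/Floxed mice with LNA29. Of 7 fasting markers, Fgf21 was higher in WT/Floxed mice (log2 fold change 1.90, adjusted p 0.171). Under the L-Sirt1 KO label Igfbp1, an insulin-lowered gene, was higher at 14660 against 6259 (1.19, adjusted p 0.0603) and Cyp4a14 was lower (-1.53, adjusted p 0.158). Of 7 clock genes none was called in either mouse comparison. Arntl, Npas2 and Dbp did not overlap between the groups labelled L-Sirt1 KO, beside 6.95% of all tested genes. Dbp held 81.4, 86.6, 48.5 and 68.4 with LNA29 there and 217, 146, 7449 and 480 with saline, where replicate 3, the liver with the highest Gckr, Slc2a2, Khk, Fbp1 and Pfkfb1 among the saline livers, stood apart. The summed clock counts were 5749 to 9546 and 8735 to 24925. These sums mix genes with fitted shifts of opposite sign (Arntl 0.89 and Npas2 1.51, Nr1d1 -1.35 and Dbp -3.04) and do not give a clock phase. The summed fasting markers were 136795 to 176561 and 173473 to 349230. Clec4f, a marker of Kupffer cells, was lower in the LNA29 livers of those mice (-0.29, adjusted p 0.19), the only call among 4 macrophage markers, whose summed level was 7715 to 9262 against 9688 to 11277. The part of food intake, time of day or macrophages in the G6pc difference was not tested. Of 3 adipocyte markers Lep was at 0 in all WT/Floxed libraries, and the list summed to at most 25.2 there, to at most 52.4 with LNA29 and to as much as 245 with saline under the L-Sirt1 KO label. Of 4 acinar markers Prss1 was at 0 in all mouse libraries, but the list summed to 503 to 1200 with LNA29 and 726 to 1383 with saline in WT/Floxed mice, and to 496 to 721 and 365 to 582 under the L-Sirt1 KO label. Most of that sum was Cela1, and in WT/Floxed mice Cpa1 (6.57 ± 12.3 with LNA29, 43.1 ± 66.0 with saline) and Pnlip (7.49 ± 13.5 and 69.4 ± 108) varied widely between livers. No adipocyte or acinar marker was called in either mouse comparison, and their part in the results was not tested.

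Which genes varied together was read across the 21 mouse livers, as the deviation of each log2 value from its group mean. G6pc and Pck1 deviated together, with a Pearson r of 0.87 and a Spearman rho of 0.84. Without the 2 livers farthest from the median of G6pc r was 0.83, and among the 7 wild-type, 6 floxed and 8 KO-labelled livers it was 0.64, 0.91 and 0.80. Fbp1, the third gluconeogenic gene, did not share this variation (r -0.26 with G6pc and -0.19 with Pck1). It went instead with Khk, at an r of 0.79, and Gckr went with Slc2a2 (0.76) and with Khk (0.75). The Gckr and Khk relation was 0.92 in wild-type, 0.21 in floxed and 0.88 in KO-labelled livers, and the Gckr and Slc2a2 relation 0.51, 0.096 and 0.88 in the same order. Pfkl ran against Fbp1 (-0.60) and Khk (-0.58). Wild-type and floxed livers were measured from the mean of their pooled treatment group. Their values therefore include any shift between the backgrounds. All r are descriptions over livers that share library preparation and, within a table, normalization.

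**Figure D2:**
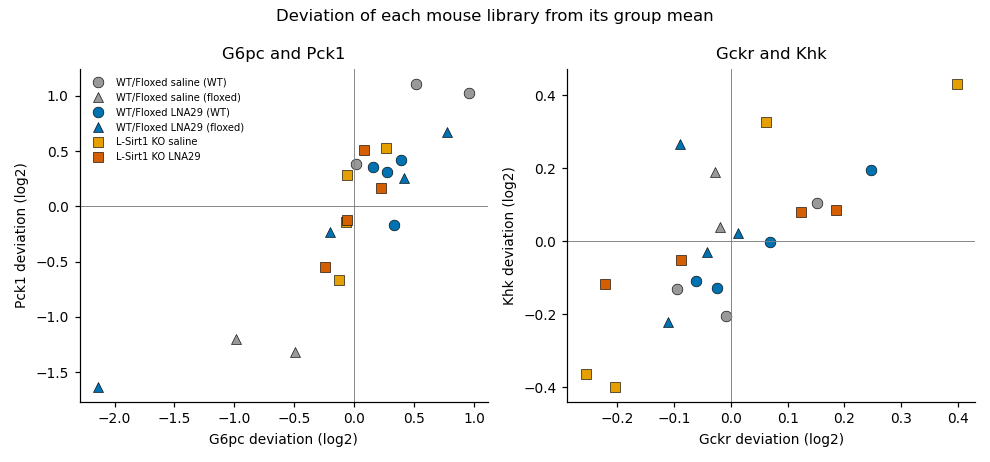
Deviation of each of the 21 mouse livers from its group mean in log2 units, Pck1 against G6pc on the left and Khk against Gckr on the right. Colours mark groups and symbols mark backgrounds as in the legend. The points of the left panel lie along a rising line (r = 0.87), with 3 floxed mice lowest for both genes.

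Of 15601 genes, those most like G6pc in this measure were Igfbp1 (r = 0.88) and Pck1 (0.87), and those most like Pck1 were Tnfrsf1b (0.91) and Slc25a47 (0.90). Gckr was most like Izumo4 (0.91) and Cyp2d22 (0.88), and Khk most like Adh5 and Sdhb (both 0.93). For Slc2a2 the nearest were Cpsf4l and Lgals9 (both 0.87), for Pfkl Gnl3l (0.88) and Arhgap35 (0.86), for Pfkfb1 Pex11g (0.86) and Slc25a44 (0.80), and for Fbp1 B230118H07Rik (0.90) and Polg2 (0.89).

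Because G6pc and Pck1 varied together, and Gckr and Khk did too, the RefSeq promoter windows of these 4 genes are shown (GRCm38.p6, 250 bases before to 50 after the start, 5′ to 3′ on the plus strand). Capitals mark any match, on either strand, to the E-box CACGTG, the cyclic AMP response element core ACGTCA (reverse TGACGT) or the FoxO motif GTAAACA (reverse TGTTTAC).
G6pc, chr11:101367466-101367765: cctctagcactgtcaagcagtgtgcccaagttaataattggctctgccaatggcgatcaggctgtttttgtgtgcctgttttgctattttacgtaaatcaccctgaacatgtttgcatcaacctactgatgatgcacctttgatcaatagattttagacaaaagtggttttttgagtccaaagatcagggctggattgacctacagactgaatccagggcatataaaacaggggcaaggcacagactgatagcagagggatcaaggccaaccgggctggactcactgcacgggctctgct
Pck1, chr2:173152823-173153122: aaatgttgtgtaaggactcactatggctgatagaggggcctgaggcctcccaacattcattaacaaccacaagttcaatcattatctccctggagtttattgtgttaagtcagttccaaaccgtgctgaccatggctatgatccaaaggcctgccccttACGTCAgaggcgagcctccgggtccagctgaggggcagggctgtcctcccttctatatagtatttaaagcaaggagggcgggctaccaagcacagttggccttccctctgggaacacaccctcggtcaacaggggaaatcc
Gckr, chr5:31297313-31297612: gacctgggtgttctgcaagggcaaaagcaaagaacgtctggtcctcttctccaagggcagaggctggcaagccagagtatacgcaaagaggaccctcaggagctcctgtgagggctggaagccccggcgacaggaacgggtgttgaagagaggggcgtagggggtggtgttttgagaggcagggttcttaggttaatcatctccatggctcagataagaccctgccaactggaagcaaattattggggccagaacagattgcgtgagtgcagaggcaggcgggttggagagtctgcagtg
Khk, chr5:30921309-30921608: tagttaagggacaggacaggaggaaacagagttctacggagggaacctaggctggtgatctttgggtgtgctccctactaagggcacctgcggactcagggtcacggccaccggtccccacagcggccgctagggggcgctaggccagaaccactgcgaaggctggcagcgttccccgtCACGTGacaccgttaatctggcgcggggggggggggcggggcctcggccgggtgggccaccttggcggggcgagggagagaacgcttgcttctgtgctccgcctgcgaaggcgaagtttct
The Pck1 window held 1 ACGTCA, which started 91 bases before the gene's start, and the Khk window 1 CACGTG, which started 71 bases before it. The G6pc and Gckr windows held none of these 3 exact strings, nor did those of the other 4 genes. Other forms of the same elements were not searched, so their absence is not shown. Over all 32851 windows of this length, 7.15% held the E-box, 7.51% the response element core and 3.65% the FoxO motif. The motifs do not overlap in these windows, and a match is not evidence of binding.

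The rat comparison asked how obesity without leptin signalling goes with the same genes. In ZFR, Gckr was at less than 50% of its level in ZLR and Slc2a2 was higher, and Pfkfb1 was higher in every fatty rat without passing the test. These 2 calls of 8 genes stand beside 367 called of 8633 tested (4.25%, at an adjusted p under 0.05), and the median log2 fold change of the 8 was 0.35 beside 0.07 for all tested genes. For 3 of the 8 the groups did not overlap, beside 14.5% of tested genes.

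Gckr held 296, 180, 263 and 333 normalized counts in ZFR against 558, 453, 635 and 650 in ZLR. All fatty rats were below all lean rats. The means were 268 ± 65.1 and 574 ± 90.2, the log2 fold change -1.12 ± 0.20, the adjusted p 0.0112 and the exact permutation p 0.0286, the smallest possible with 4 against 4. The value was -1.12 on the flow cell of replicates 1 and 2 and -1.11 on that of replicates 3 and 4. Without the 2 shallow lean livers it was -0.94 with an adjusted p of 0.0475.

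Slc2a2 held 1174, 1205, 1351 and 1208 in ZFR and 967, 848, 843 and 877 in ZLR, again without overlap. The log2 fold change was 0.48 ± 0.09 with an adjusted p of 0.0137, and it was 0.39 and 0.57 within the flow cells. Without the 2 shallow lean livers it was 0.44 and no longer called (adjusted p 0.0609).

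Pfkfb1 held 81.8, 124, 126 and 82.2 in ZFR against 64.9, 65.8, 59.0 and 23.4 in ZLR. The lowest lean value rests on about 2 reads. Its log2 fold change was 1.02 ± 0.33 with an adjusted p of 0.143, and 0.63 (adjusted p 0.146) without the 2 shallow lean livers.

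Pfkl held 109, 141, 85.7 and 104 in ZFR and 77.8, 74.3, 94.8 and 73.1 in ZLR, a log2 fold change of 0.44 ± 0.18 (adjusted p 0.248). Only ZLR replicate 3 lay among the fatty rats. The values of ZLR replicates 3 and 4 rest on about 9 and 7 reads. With precision weights from the estimated reads Pfkl was called (0.51, adjusted p 0.0449).

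Khk held 884, 626, 852 and 681 in ZFR against 818, 613, 569 and 439 in ZLR, with overlap. Khk (0.34 ± 0.19, adjusted p 0.411) and Fbp1 (-0.07 ± 0.09, adjusted p 0.726) were not called. Among the gluconeogenic genes Pck1 held 2976, 2824, 3928 and 3198 in ZFR against 3129, 4523, 7174 and 4052 in ZLR, with a log2 fold change of -0.49 ± 0.22 and an adjusted p of 0.312. G6pc held 3155, 1680, 2051 and 2883 against 1876, 1202, 3429 and 1525 (0.35 ± 0.31, adjusted p 0.593). The 2 genes thus had fitted differences of opposite sign here, neither past the test, and across the 16 rat livers their deviations from group means had an r of 0.54.

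Of the other genes on the pathway lists 29 were tested in this comparison, of which 5 were higher in ZFR and none lower. The fructose transporter Slc2a5 was at 184 against 52.3 normalized counts (log2 fold change 1.80, adjusted p 0.000299) and the pyruvate kinase gene Pklr at 1624 against 728 (1.14, adjusted p 0.00692). Tkfc, the triokinase that acts after ketohexokinase, was at 968 against 560 (0.81, adjusted p 0.036), and the enolase gene Eno1 at 878 against 565 (0.65, adjusted p 0.0421).

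Clock genes differed between the same livers. Of 7 clock genes 4 were higher in ZFR (Dbp 5.01, Per3 4.30, Per2 2.11 and Tef 1.19 on the log2 scale) and 2 were lower (Arntl -2.46 and Npas2 -3.65), all with adjusted p from 0.00753 to 0.0207. The summed clock counts, again over genes of opposite sign, were 419 to 701 in ZFR and 211 to 283 in ZLR. No fasting marker of 6 was called. Of 7 hepatocyte markers Ttr and Cps1 were lower (-0.43 and -0.58), with summed counts of 186398 to 282350 in ZFR against 234036 to 298870 in ZLR. The endothelial marker Stab2 was higher (1.16), 1 of 2 tested, while Kdr was at -0.31 and not called. The summed endothelial counts overlapped, at 114 to 209 in ZFR and 145 to 174 in ZLR. None of 4 stellate cell and 4 macrophage markers was called, although the summed stellate counts were 145 to 238 in ZFR against 70.1 to 150 in ZLR. The acinar marker Cela1 was lower in ZFR, with summed acinar counts of 4.18 to 9.41 against 15.4 to 41.8. Most of that sum was Cela1 (4.76 against 26.9). Cpa1 (0.46 against 0.04), Pnlip (0.84 against 0.03) and Prss1 (1.01 against 0.11) were too low to test and had higher means in ZFR. The part of the clock phase or of cell makeup in the Gckr and Slc2a2 differences was not tested.

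**Figure D3:**
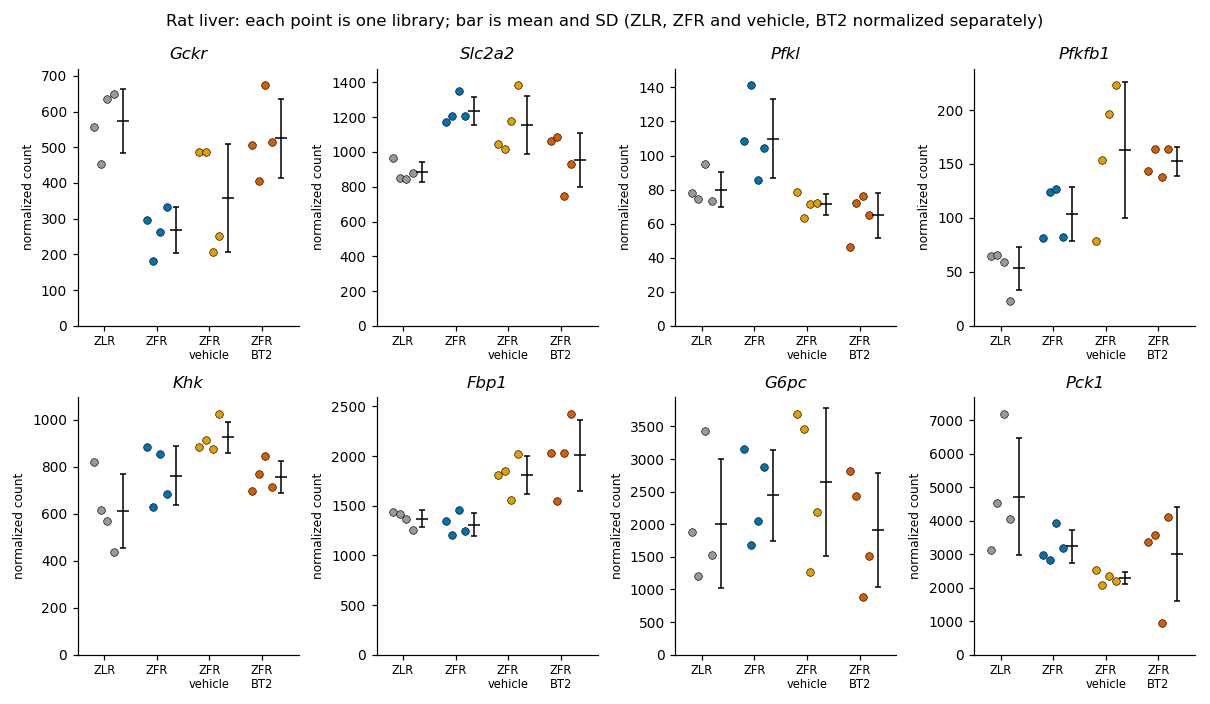
Normalized counts of the 8 genes in the 16 rat livers by group, on linear axes from 0, with points as single livers and bars as mean and SD. ZLR and ZFR were normalized apart from vehicle and BT2. Gckr lies at 180 to 333 in ZFR and 453 to 650 in ZLR, and the vehicle rats split into 2 near 490 and 2 near 206 to 251.

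BT2 was given to ZFR to ask what inhibiting the keto acid dehydrogenase kinase does to the fatty liver's mRNA. None of the 8 genes was called, nor was any of the 8405 genes tested in limma (0%), of which 332 (3.95%) had an unadjusted p under 0.05. The median log2 fold change of the 8 was -0.08 beside 0.01 for all tested genes. Khk was the only one of the 8 whose groups did not overlap, beside 2.96% of tested genes.

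Khk held 697, 768, 845 and 712 with BT2 against 885, 912, 876 and 1022 with vehicle. All treated rats were lower, with a log2 fold change of -0.29 ± 0.11, an unadjusted p of 0.0248, an adjusted p of 0.898 and an exact permutation p of 0.0286. It was -0.30 and -0.29 within the flow cells.

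Gckr held 505, 407, 673 and 515 with BT2 and 488, 486, 206 and 251 with vehicle. The log2 fold change was 0.63 ± 0.28 (unadjusted p 0.048, adjusted p 0.898), but it was -0.10 on the flow cell of replicates 1 and 2 and 1.37 on that of replicates 3 and 4. The vehicle livers of these flow cells did not overlap, and replicate 4 was the shallowest library of the table.

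Slc2a2 (-0.28 ± 0.15), Pfkl (-0.16 ± 0.20), Pfkfb1 (0.00 ± 0.28), Fbp1 (0.14 ± 0.14), G6pc (-0.49 ± 0.40) and Pck1 (0.19 ± 0.38) had adjusted p from 0.898 to 0.999. For Pfkfb1 the 95% interval was -0.62 to 0.63, and for G6pc -1.36 to 0.39, so that changes of this size were not detectable at this depth and number. G6pc held 2814, 2437, 881 and 1516 with BT2 against 3687, 3455, 1271 and 2184 with vehicle, and Pck1 3377, 3563, 943 and 4106 against 2515, 2094, 2335 and 2210. BT2 replicate 3 was lowest for both genes. Slc2a2 held 1064, 1084, 747 and 930 against 1044, 1015, 1179 and 1383, with overlap. None of 27 other pathway genes was called, and the largest fitted shift was that of Pfkfb2 (-1.08 ± 0.97). Among clock genes Arntl did not overlap between the groups (53.7 with BT2 against 24.9 with vehicle), beside 2.96% of all tested genes, with 0 of 7 called.

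**Figure D4:**
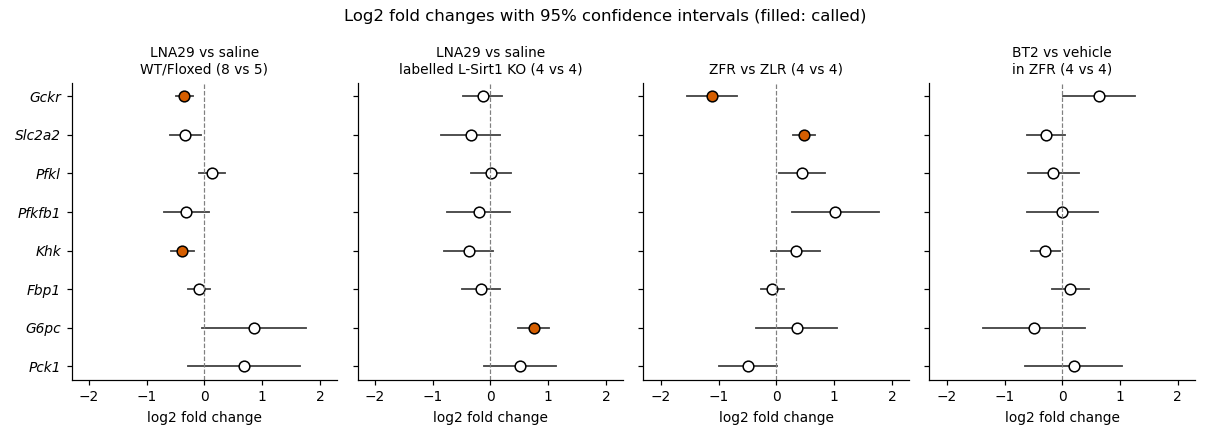
Log2 fold changes of the 8 genes in the 4 comparisons with 95% confidence intervals from limma, where filled points are called and the dashed line is no difference. Gckr lies left of the line in 3 comparisons (-0.35, -0.13 and -1.12) and right of it with BT2 (0.63), and G6pc lies at 0.86 and 0.75 in the mouse comparisons.

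Across the 4 comparisons no gene was called in the same direction in both species except Gckr, which fell below its controls both in LNA29-treated WT/Floxed mice and in ZFR. Slc2a2 had a fitted difference below 0 with LNA29 in both mouse comparisons (-0.33 and -0.34, neither called) and was higher in ZFR. G6pc was above 0 with LNA29 in both mouse comparisons, called in 1 of them. Fbp1 was called in none and had fitted differences between -0.17 and 0.14.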

How the data were processed

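Each of the 4 deposited tables holds a signal: Salmon 0.6.0 gene counts of STAR 2.5.3a alignments to mm10 or rn6 that the authors scaled with DESeq2, table by table. Every sample column was matched to a label. Of values up to 20.5 times 1 read's worth, taken as a library's most frequent value above 0, 75.9% to 92.3% per library lay within 0.1 of a whole number of reads, so reads were not recovered and no count model was run, and depth was estimated from that worth. Tests used limma 3.58.1 (R 4.3.3, trended eBayes) on log2(normalized count + 1) for genes with a mean of at least 10, which understates changes of low genes, with Benjamini-Hochberg adjustment over all tested genes. Per-gene exact permutation tests were two-sided. The scripts were tested on simulated data. No replicate libraries were identical. Replicates are separate animals as labelled.

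All 8 genes are reported in every comparison. Of other pathway genes, up to 4 calls per direction with the largest log2 fold changes are named, or the single largest shift where none was called. Tpi1 and Gpi1 in WT/Floxed mice were added after seeing the data, because they missed only the criterion of 1.2 times. The members, lists and rules were chosen with earlier results of these data known. Positions and 3′ UTRs come from GENCODE M21 and promoters and microRNAs from RefSeq (Python 3.11.15, pandas 2.3.3; figures with matplotlib 3.10.9). Alternatives were another pseudocount, no minimum, TMM scaling, sample weights, precision weights, flow cell, background or replicate number as a covariate, a stricter threshold and leaving out each library. Leaving out both shallow lean libraries was added after seeing the data. 1 gene of the pathway lists is not reported here.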

Additional observations from a re-analysis of the deposited data

Results flagged for a closer look

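In 4 of the 64 sets of values (8 genes in 8 groups) the highest or lowest liver stood farther from the rest of its group than Dixon's 95% limit allows, and chance gives about 1 in 20. Gckr was 10287 in WT/Floxed LNA29 replicate 1, with the next liver at 9086. Pfkl was 3141 in saline replicate 2 of the mice labelled L-Sirt1 KO, with the next at 2215. G6pc was 27680 in saline replicate 4 of those mice, with the next at 22167, and this liver was still below all LNA29 livers. Pfkfb1 was 23.4 in ZLR replicate 4, with the next at 59.0.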

How the results depend on the processing

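Over the planned and added alternatives the 5 counts of called genes were within 1.5 times the reported ones in 87 of 94 fits, and single genes kept direction and call in 691 of 752. The counts for BT2 and the interaction were 0 in every fit, so these fits say little about stability. Apart from leaving out single libraries, the count was within 1.5 times in 6 of 8 fits in WT/Floxed mice. It was so in 6 of 7 under the L-Sirt1 KO label and 4 of 8 in ZFR against ZLR. The replicate numbers did not pair the animals (correlations of same-numbered livers -0.28 to 0.24). With the replicate block the calls were 0 in WT/Floxed mice (Gckr adjusted p 0.37, Khk 0.626), 1 in mice labelled L-Sirt1 KO, 1 in ZFR against ZLR and 0 with BT2. At an adjusted p under 0.05 the mouse counts were 1 and 0. In ZFR against ZLR the count was 1 with TMM scaling (Slc2a2 adjusted p 0.0771), 1 without the 2 shallow lean livers and 4 with sample quality weights, which added Pfkl (0.0116) and G6pc (0.012). Leaving out each library gave 2 to 3, 1 to 1, 2 to 2 and 0 to 0 calls, and 0 to 0 for the interaction. The cause of these shifts was not tested.

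Signs changed only for differences far from the threshold. With BT2, Pfkfb1 was -0.0032 with a pseudocount of 10 and -0.021 with TMM scaling. In the interaction Khk was -0.0053 with TMM scaling, -0.056 with flow cell and -0.060 with the replicate block, G6pc was 0.0044 with flow cell and 0.19 with the replicate block, and with sample quality weights Slc2a2 was 0.24 and Pck1 0.12. Leaving out single libraries gave -0.069 to 0.15 for Pfkl in mice labelled L-Sirt1 KO and, with BT2, -0.31 to 0.19 for Pfkfb1 and -0.023 to 0.68 for Pck1. For the interaction it gave -0.18 to 0.14 (Slc2a2), -0.21 to 0.016 (Pfkl), -0.019 to 0.31 (Pfkfb1), -0.13 to 0.15 (Khk), -0.20 to 0.049 (Fbp1), -0.42 to 0.14 (G6pc) and -0.44 to 0.16 (Pck1). Over all genes the calls ranged from 56 to 1308 in WT/Floxed mice, 37 to 804 in mice labelled L-Sirt1 KO, 221 to 1169 in ZFR against ZLR, 0 to 2 with BT2 and 0 to 1220 for the interaction.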

Other observations

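Some genes outside the 8, chosen after their values were seen, had groups that did not overlap with BT2 although none passed the adjusted test. Pklr was at 1173 with BT2 against 1885 with vehicle (log2 fold change -0.71, adjusted p 0.898) and Slc2a5 at 92.4 against 139.9 (-0.60, adjusted p 0.898). Both genes were higher in ZFR than in ZLR. In the mice labelled L-Sirt1 KO, Fgf21, a hormone of fasting and nutrient stress, was at 58.7 with LNA29 against 447 with saline (-2.51, adjusted p 0.247), while in WT/Floxed mice it was at 307 against 87.5 (1.90, adjusted p 0.171).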
